A study of Mus musculus with 36 samples.

Results

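MBD3 peaks of mouse embryonic stem cells were compared between day 6 and day 0. A peak is an interval where immunoprecipitated DNA fragments pile up above the local background. The day 6 list held 10875 peaks and the day 0 list 10464 peaks on chromosomes 1 to 19, X and Y. These 21339 peaks were taken from 182783 MBD3 and CTCF peaks in the whole series. They were classed by position alone: a peak was shared when it overlapped a peak of the other day by 1 bp or more, and was otherwise a peak of day 6 alone or of day 0 alone.

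The series measured MBD3, the insulator protein CTCF and input chromatin by chromatin immunoprecipitation and sequencing (ChIP-seq) on days 0, 2, 4 and 6, with 3 samples in each of 12 groups. The groups compared here are 3 MBD3 immunoprecipitates of day 6 and 3 of day 0. Both come from cells called WT in the deposited lists, kept in medium with KnockOut Serum Replacement and LIF (leukaemia inhibitory factor), typically on irradiated mouse embryonic fibroblast feeders. The labels name no agent, allele, strain or step that separates day 6 from day 0, and peak positions cannot check the cell type. The authors called peaks on the 3 samples of a group together, so each day is 1 list with no spread between replicates, and no difference between days has a replicate check or a test. All intervals below are exact (Clopper-Pearson) 95% binomial intervals. They cover counting error only: they take the peaks of a list as independent and leave out the spread between replicates.

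MBD3 is a core subunit of NuRD, a complex that joins a nucleosome remodelling ATPase to histone deacetylases. Unlike its relative MBD2, mammalian MBD3 does not bind methylated DNA selectively. In embryonic stem cells NuRD acts at promoters and enhancers and is needed for orderly exit from self-renewal. CTCF, the protein whose sites are compared with MBD3 in this series, is a zinc finger protein that anchors chromatin loops together with cohesin.

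The promoters with the strongest MBD3 summit in each class are shown to set the sequence under a peak beside its values. They are the 300 bases from 250 before to 50 after a RefSeq transcription start (GRCm38.p6), written 5′ to 3′ along the gene. The class of a promoter goes by MBD3 within this window, not by the overlap of peaks between days. Capitals mark matches, on either strand, to AGNGGGCG, taken from the core of the known CTCF motif and chosen after the sequences had been read.
Api5, chr2:94438137-94438436, strand -: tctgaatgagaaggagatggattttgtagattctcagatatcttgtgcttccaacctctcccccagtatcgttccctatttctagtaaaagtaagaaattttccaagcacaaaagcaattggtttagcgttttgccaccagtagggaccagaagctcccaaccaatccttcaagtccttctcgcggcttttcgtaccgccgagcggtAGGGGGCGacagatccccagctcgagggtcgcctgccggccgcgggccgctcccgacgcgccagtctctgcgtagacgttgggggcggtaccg
Ror1, chr4:100095541-100095840, strand +: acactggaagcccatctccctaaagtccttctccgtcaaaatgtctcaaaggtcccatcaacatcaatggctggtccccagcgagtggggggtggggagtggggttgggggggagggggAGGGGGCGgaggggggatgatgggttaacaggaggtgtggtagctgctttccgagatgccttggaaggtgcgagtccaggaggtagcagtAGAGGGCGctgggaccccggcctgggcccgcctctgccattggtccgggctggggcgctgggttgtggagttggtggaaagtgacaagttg
Nipsnap2, chr5:129724825-129725124, strand +: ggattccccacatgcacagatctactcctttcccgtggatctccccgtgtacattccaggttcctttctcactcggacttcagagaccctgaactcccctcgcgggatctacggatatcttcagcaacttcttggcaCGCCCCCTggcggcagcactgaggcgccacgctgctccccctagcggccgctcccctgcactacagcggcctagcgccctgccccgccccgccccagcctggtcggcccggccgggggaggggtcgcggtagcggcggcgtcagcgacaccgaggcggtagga
Rapgef1, chr2:29619470-29619769, strand +: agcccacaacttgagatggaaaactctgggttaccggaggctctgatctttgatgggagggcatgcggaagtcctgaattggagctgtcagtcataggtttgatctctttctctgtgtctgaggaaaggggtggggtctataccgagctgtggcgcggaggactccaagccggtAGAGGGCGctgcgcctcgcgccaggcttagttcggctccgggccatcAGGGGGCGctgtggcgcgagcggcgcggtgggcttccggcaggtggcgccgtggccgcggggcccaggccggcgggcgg
Amz2, chr11:109425696-109425995, strand +: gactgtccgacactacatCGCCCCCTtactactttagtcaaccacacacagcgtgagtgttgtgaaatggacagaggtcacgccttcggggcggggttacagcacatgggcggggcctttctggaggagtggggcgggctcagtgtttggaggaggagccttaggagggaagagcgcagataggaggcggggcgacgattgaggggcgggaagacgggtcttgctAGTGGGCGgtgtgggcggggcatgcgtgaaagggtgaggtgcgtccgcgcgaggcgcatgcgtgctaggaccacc
Relt, chr7:100863364-100863663, strand -: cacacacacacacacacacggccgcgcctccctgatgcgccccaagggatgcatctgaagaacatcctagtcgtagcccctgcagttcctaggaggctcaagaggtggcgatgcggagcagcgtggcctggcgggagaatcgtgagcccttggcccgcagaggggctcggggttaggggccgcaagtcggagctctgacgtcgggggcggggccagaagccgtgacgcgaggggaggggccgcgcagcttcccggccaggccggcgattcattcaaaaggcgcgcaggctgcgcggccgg
Api5, an inhibitor of apoptosis, and Ror1, a receptor tyrosine kinase-like receptor of Wnt signalling, had MBD3 in the window on day 6 alone. Their folds over background were 6.40 and 6.16, with 80 and 58 fragments over the summits. Nipsnap2, a mitochondrial protein gene, and Rapgef1, an activator of the GTPase Rap1, had MBD3 on both days. Nipsnap2 had a fold of 24.7 on day 6 and 28.6 on day 0, and Rapgef1 23.6 on day 6 and 29.8 on day 0. Amz2, a metallopeptidase gene, and Relt, a member of the TNF receptor family, had MBD3 in the window on day 0 alone. Their folds were 8.05 and 7.69, with 108 and 60 fragments. A peak in a single-day window may still overlap a peak of the other day that lies outside the window. Relt is among the gene-end peaks of day 0 alone named below, and Amz2 is not. All 6 windows overlapped a CTCF peak on both days. Relt alone among them held no match, which says only that these letters are not in its window. The summits of Api5, Ror1, Nipsnap2 and Rapgef1 lay 6 to 86 bp before the start on the days with a peak, that of Relt 120 bp before it and that of Amz2 241 bp before it.

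Of the day 6 peaks, 5228 (48.1%) had no day 0 peak and 5647 (51.9%, interval 51.0 to 52.9%) were shared. Of the day 0 peaks, 4815 (46.0%) had no day 6 peak and 5649 (54.0%, interval 53.0 to 54.9%) were shared. The lists formed 15682 merged sites. The overlap rule left few doubtful cases: the 5657 overlapping pairs covered a median of 99.7% of the shorter peak, their least overlap was 19 bp, and 97.2% had summits within 100 bp. On the other side of the rule, the nearest pair that did not overlap was 177 bp apart for a day 6 peak and 140 bp for a day 0 peak. Within 1 kb of a peak of the other day lay 125 peaks of day 6 alone and 145 of day 0 alone.

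Peak strength divided the classes differently on the days. The authors' lists give the −log10 of a q value, which follows the amount of evidence, and the fold at the summit, which is fragments over local background. By deciles of −log10 q from weakest to strongest, the share of shared peaks was 26.5% to 86.0% in the day 6 list and 15.7% to 95.4% in the day 0 list. By deciles of fold, the day 0 list again had its lowest share in decile 1 (35.9%) and its highest in decile 10 (84.0%). The day 6 list did not: 57.9% of its weakest decile by fold was shared, 44.9% of decile 8 and 67.9% of decile 10. A high fold on day 6 was thus less closely tied to a day 0 peak than a high fold on day 0 was to a day 6 peak, as far as these single lists show.

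**Figure D1:**
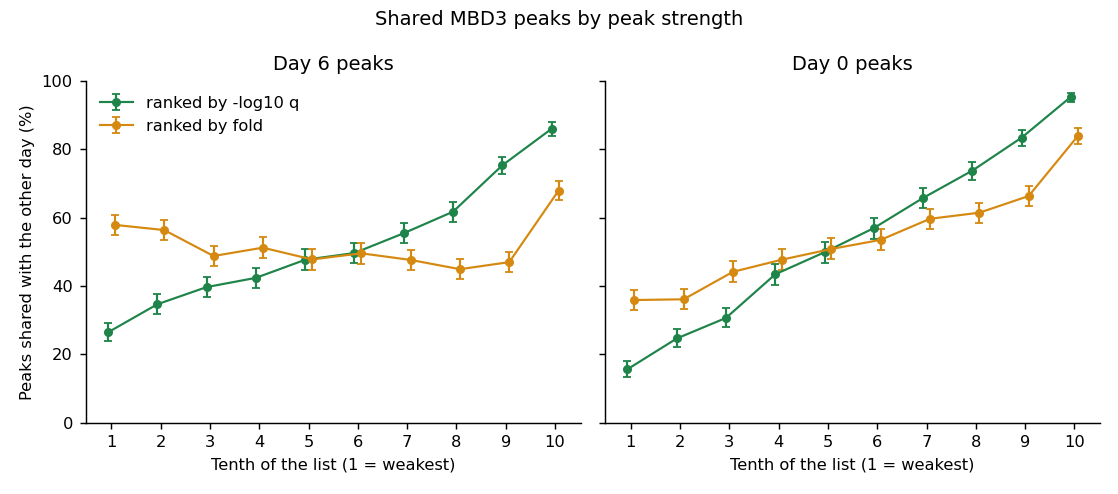
Share of MBD3 peaks that overlap a peak of the other day (%, y axis) by decile of the list from weakest to strongest (x axis), for day 6 (left) and day 0 (right). Points are shares with exact 95% intervals, ranked by −log10 q (green) or fold (orange). In the day 6 list ranked by fold the share stays between 44.9% and 57.9% up to decile 9.

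Peaks of day 6 alone stood as high over background as shared peaks, whereas peaks of day 0 alone stood lower. The median fold was 4.59 for day 6 alone (interquartile range 3.82 to 5.59), 4.56 for shared peaks on day 6, 4.40 for shared peaks on day 0 and 3.70 for day 0 alone (3.06 to 4.55). Both single-day classes had fewer fragments over the summit than shared peaks: a median of 27 for day 6 alone, 45 and 38 for shared peaks on day 6 and day 0, and 23 for day 0 alone. A −log10 q of 10 or more was reached by 1996 peaks of day 6 alone (38.2%) and by 699 of day 0 alone (14.5%). A fold of 10 or more was reached by 136 and 3 of them. The number of fragments and the local background were recovered from the fold and p of each summit. The smallest background that recurred among the peaks of a list was 1.41 fragments on day 6 and 1.51 on day 0. It is taken as the genome-wide level and is the only measure of depth here.

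**Figure D2:**
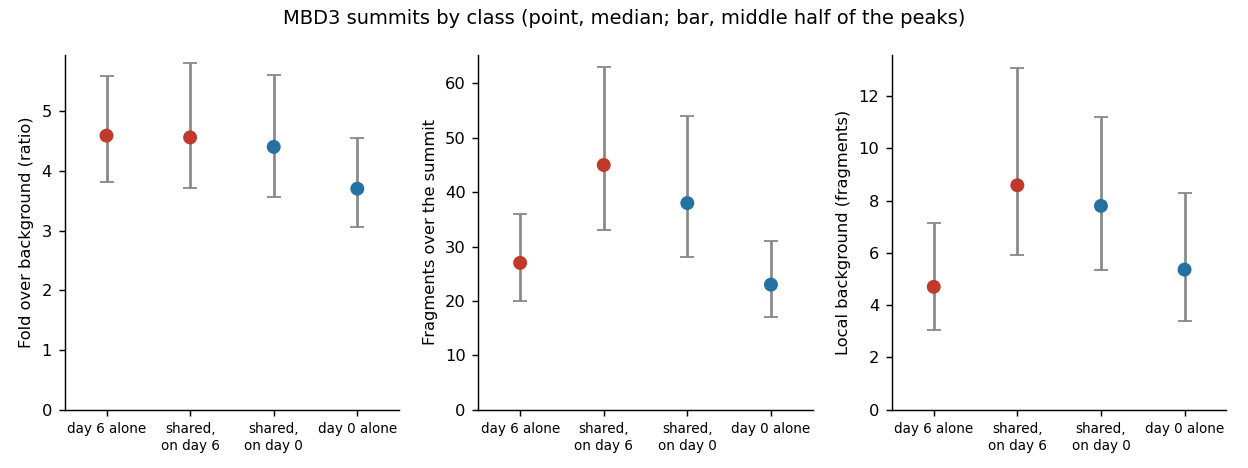
Fold over background (left), fragments over the summit (middle) and local background in fragments (right) for MBD3 peaks of day 6 alone, shared peaks on each day and day 0 alone. Points are medians and bars the interquartile range. Day 6 alone matches shared peaks in fold (4.59 and 4.56), with fewer fragments (27 and 45) over a lower background (4.70 and 8.58).

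At the 5638 shared pairs with a recovered value on both days, the number of fragments on day 6 was a median of 1.19 times that on day 0 (interquartile range 0.964 to 1.45). It was over 2 times higher on day 6 at 189 pairs and over 2 times higher on day 0 at 163. The fold was higher on day 6 in 54.0% of pairs, near an even split. Across pairs, Spearman's rho was 0.788 for fragments and 0.438 for fold. These values are a description, since all points share the same pooled libraries and each list's own background. By rank, shared sites were closer between the days in fragments than in fold. Fold divides the fragments by a local background that differs between sites and days, and its part in this gap was not tested.

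CTCF lay under most peaks of each class, with a lower share for day 0 alone. CTCF peaks were present on both days under 4545 peaks of day 6 alone (86.9%, interval 86.0 to 87.8%), 5385 shared peaks of the day 6 list (95.4%) and 3272 peaks of day 0 alone (68.0%, interval 66.6 to 69.3%). Peaks listed for MBD3 on a single day were thus mostly at sites listed for CTCF on both days. No MBD3 value is known for the other day at these sites. A level just under the threshold there cannot be told apart from absence. CTCF of the same day, whatever the other day held, lay under 87.9% of day 6 alone, 95.5% of shared peaks on day 6 and 80.2% of day 0 alone. With a −log10 q of 10 or more asked of all MBD3 and CTCF peaks, and the classes formed anew, it lay under 89.8% of day 6 alone, 94.9% of shared peaks on day 6 and 92.5% of day 0 alone, so the order of the single-day classes turned. CTCF on day 6 alone lay under 51 peaks of day 6 alone (0.976%). CTCF on day 0 alone lay under 590 peaks of day 0 alone (12.3%, interval 11.3 to 13.2%), and 33.4% of those 590 had their summit within 1 kb of a gene end. The CTCF list was shorter on day 6, with 38109 peaks against 47414 on day 0. Outside CTCF on both days were 617 peaks of day 6 alone (11.8%), 200 shared peaks (3.54%) and 947 peaks of day 0 alone (19.7%). These outside peaks differed in kind: 38.9% of those of day 6 alone and 54.0% of the shared ones overlapped an annotated pseudogene, against 4.01% of those of day 0 alone.

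Where CTCF was listed on both days, the strength of the CTCF peak also separated the classes. In the day 6 CTCF list, the median CTCF fold was 13.9 under MBD3 of day 6 alone and 9.61 under MBD3 of day 0 alone. In the day 0 CTCF list the order was the other way, with 10.1 under day 6 alone and 11.3 under day 0 alone. Under shared MBD3 peaks it was higher than under either, at 14.8 in the day 6 list and 14.1 in the day 0 list. Seen from CTCF, the 34294 day 6 CTCF peaks that overlap a day 0 CTCF peak carried MBD3 on day 6 alone in 13.2%, on both days in 15.7% and on day 0 alone in 9.47%. Across deciles of their day 6 CTCF fold, MBD3 of day 6 alone was at 0.466% in decile 1 and at 31.3% in decile 10. MBD3 of day 0 alone was most frequent in decile 6 (13.8%) and least in decile 10 (4.14%). Ranked by the day 0 CTCF fold instead, MBD3 of day 6 alone was most frequent in decile 7 (22.4%) and MBD3 of day 0 alone in decile 9 (18.0%). Each single-day class was thus most frequent in a higher decile of the CTCF fold of its own day than of the other day. The antibodies' lists come from separate libraries, and whether CTCF-bound fragments carried into the MBD3 libraries was not tested.

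**Figure D3:**
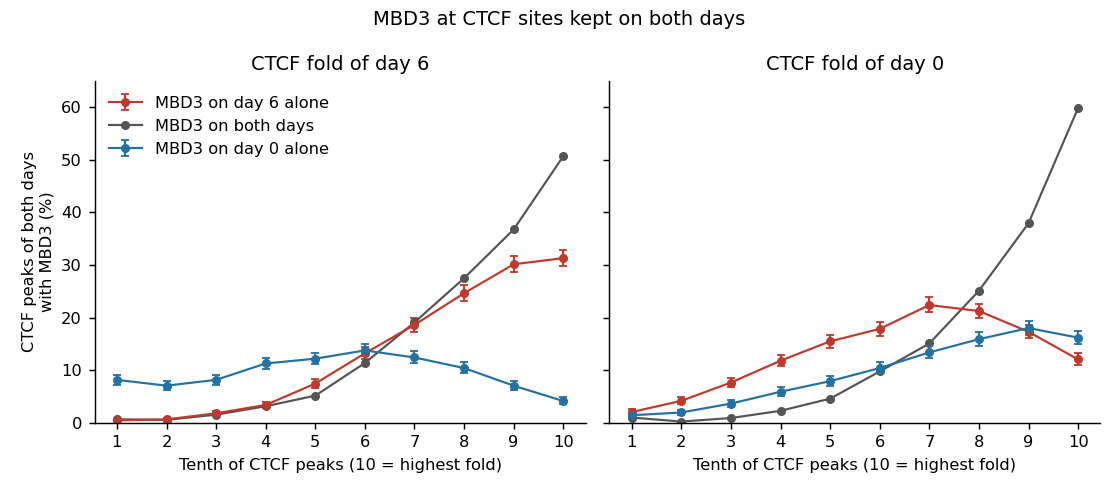
CTCF peaks found on both days (x axis, deciles of CTCF fold on day 6, left, or day 0, right) and the share that carried MBD3 on day 6 alone (red), on both days (grey) or on day 0 alone (blue), in % (y axis). Bars on the single-day points are exact 95% intervals. MBD3 of day 6 alone reaches 31.3% at the strongest day 6 CTCF peaks, where MBD3 of day 0 alone is at 4.14%.

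The highest folds of day 6 alone were outside CTCF and mostly on pseudogenes, the reverse-transcribed or duplicated copies of genes. Pseudogenes were a small part of the class as a whole: 279 of all 5228 peaks of day 6 alone (5.34%) overlapped one. The share was 2.82% for shared peaks on day 6 and 1.62% for day 0 alone, and pseudogenes make up 1.18% of the annotated chromosome span. Of the 136 peaks of day 6 alone with a fold of 10 or more, 84 overlapped an annotated pseudogene, 16 lay in CTCF peaks, and 34 lay outside CTCF and pseudogenes but inside a protein-coding gene. All 3 peaks of day 0 alone with such a fold lay in CTCF. The 5 highest of day 6 alone were on the pseudogene Gm6863 (chromosome 12, 96922410 to 96923056 in mm10, fold 103), on Gm6368 (chromosome X, 141980076 to 141980924, 96.3), in Hsp90ab1 (chromosome 17, 45568881 to 45569139, 64.6), on Gm15500 (chromosome 7, 114705310 to 114706237, 62.3) and inside Macrod2 (chromosome 2, 140955857 to 140956147, 60.9). Hsp90ab1 encodes the constitutive cytosolic HSP90 chaperone and Macrod2 a hydrolase of ADP-ribose on proteins. All 5 also had a peak on days 2 and 4, and none overlapped CTCF on day 6 or day 0. They held 147 to 500 fragments over local backgrounds of 1.43 to 6.75, against a genome-wide level of 1.41. No fragment number is known for day 0 at these sites, because the lists hold values at peaks alone. Elsewhere on Gm6368 a day 0 peak had a fold of 3.63 and 80 fragments, so that pseudogene counts below as one of both days.

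Where pseudogenes had MBD3 on both days, the fragments and the background can be set side by side, and they moved apart. The highest shared peak lay on Rplp2-ps1, a ribosomal protein pseudogene inside Wdr89 (chromosome 12, 75630989 to 75631378). It had a fold of 88.6 on day 6 and 2.05 on day 0, yet held 305 fragments on day 6 and 620 on day 0. The local background was 2.45 fragments on day 6 and 302 on day 0. On Gm15772 the folds were 83.9 on day 6 and 2.86 on day 0, with 443 and 1273 fragments over backgrounds of 4.29 and 444. On Rpl14-ps1, inside the channel gene Trpm4, the folds were 72.1 on day 6 and 1.75 on day 0, with 248 and 685 fragments over backgrounds of 2.45 and 391. At all 3 sites the day with the higher fold was the day with fewer fragments.

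The same held across the group. Of 111 shared pairs on pseudogenes outside CTCF, 108 had the higher fold on day 6, 4 had more fragments on day 6 and 109 had the lower background on day 6. Their median fold was 10.5 on day 6 and 2.19 on day 0, their median fragments 54 on day 6 and 149 on day 0, and their median background 3.81 on day 6 and 62.9 on day 0. The 5337 shared pairs in CTCF and off pseudogenes had median folds of 4.55 on day 6 and 4.48 on day 0 and median backgrounds of 8.79 and 7.80. The 142 pairs outside both CTCF and pseudogenes had median folds of 3.49 on day 6 and 3.20 on day 0 and median backgrounds of 13.2 and 24.8. At shared pseudogene sites a higher fold on day 6 thus went with fewer fragments and a lower background. Because fold is fragments over background, a higher fold with fewer fragments requires a lower background. The lower background is therefore not a separate observation. Day 0 values at the pseudogenes of day 6 alone are not known, and the part of the background in those calls was not tested. The 3 largest gains in rank by fold among shared peaks were also of this kind. They lay on Rps23-ps1 (folds of 68.2 on day 6 and 1.61 on day 0, over backgrounds of 1.83 and 198), on Gm12346 (34.9 and 1.24, over 1.64 and 363) and on Gm8130 (44.5 and 1.60, over 2.86 and 202). The 3 largest losses in rank were all in CTCF: at Kxd1 (2.48 on day 6 and 6.71 on day 0), within the noncoding RNA Gm41414 (2.93 and 7.37) and in the bone morphogenetic protein antagonist Chrdl2 (2.88 and 7.0). At Kxd1 the fragments were 89 on day 6 and 94 on day 0, over backgrounds of 35.4 and 13.2. At the Gm41414 site they were 51 and 71, over 16.8 and 8.77, and at Chrdl2 29 and 28, over 9.40 and 3.15.

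**Figure D4:**
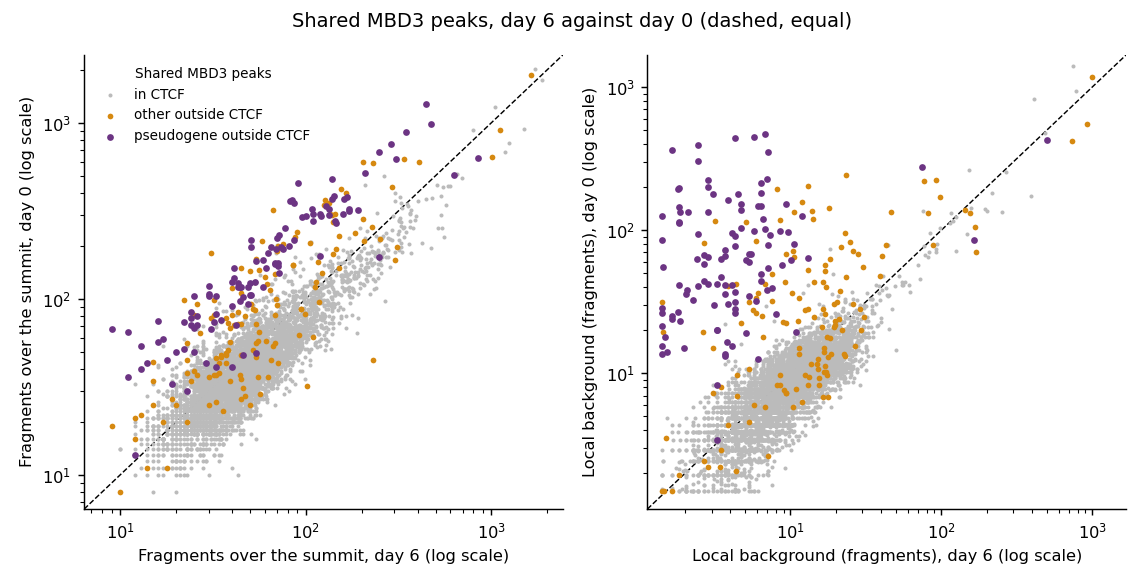
Fragments over the summit (left) and local background in fragments (right) at shared MBD3 peaks on day 6 (x axis) and day 0 (y axis), both on log scales, with the dashed line at equality. Each point is a pair: in CTCF (grey), outside CTCF on a pseudogene (purple) or elsewhere outside CTCF (orange). Most purple points lie above the line in both panels, with median backgrounds of 3.81 on day 6 and 62.9 on day 0.

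Counted as genes, pseudogenes overlapped by MBD3 on day 6 alone numbered 255 of 10609 (2.40%), those on both days 158 (1.49%) and those on day 0 alone 65 (0.613%). Ribosomal protein pseudogenes, named by symbol, were 31, 27 and 2 of 312 in the same order, and none of their peaks lay in CTCF. Examples on day 6 alone were Rps24-ps3 (fold 39.4, 143 fragments), Rps6-ps4 (27.4, 88 fragments) and Rpl17-ps10 (23.2, 136 fragments). On both days Rps18-ps6 had a fold of 51.6 on day 6 and 1.99 on day 0, with 346 and 888 fragments. Tpt1-ps3, a copy of the translationally controlled tumour protein gene, had a fold of 35.0 on day 6 and 1.93 on day 0, with 170 and 317 fragments. Of the 255 pseudogenes with MBD3 on day 6 alone, 165 also had it on day 2 and 138 on day 4, so many of these sites lacked a peak on day 0 but not on the days between. Copies of 1 gene are near-identical, and how reads that match several copies were placed is not given in the sources used here.

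A smaller share of the peaks of day 6 alone lay at gene ends than of the other classes. The summit was within 1 kb of an end of a protein-coding gene in 475 peaks of day 6 alone (9.09%, interval 8.32 to 9.90%), 1024 shared peaks (18.1%) and 915 peaks of day 0 alone (19%, interval 17.9 to 20.1%). Such windows make up 2.91% of the annotated chromosome span, so every class was above it. The gap was at starts: 4.67% of day 6 alone, 13.1% of shared peaks and 14.5% of day 0 alone lay within 1 kb of a start. Within 1 kb of the last base and not of a start, the shares were close, at 2.82%, 3.14% and 2.32%. At gene ends the peaks of day 6 alone, shared and day 0 alone lay in CTCF of their own day in 84.8%, 94.5% and 84.4%. With the −log10 q set at 10 or more in both lists, the share at gene ends was still lower for day 6 alone (12.0%) than for day 0 alone (21.0%).

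Among 32851 RefSeq promoter windows of 300 bases, MBD3 overlapped 212 on day 6 alone (0.645%), 628 on both days (1.91%) and 562 on day 0 alone (1.71%). Promoters with MBD3 were rich in CG dinucleotides, the bases that DNA methylation marks: a median of 15.5 per window on day 6 alone, 23 on both days and 24 on day 0 alone, against 7 over all windows. The letters AGNGGGCG, on either strand, were in 34.9% of windows on day 6 alone (interval 28.5 to 41.7%), 46.7% on both days (42.7 to 50.6%) and 30.4% on day 0 alone (26.6 to 34.4%), against 12.2% of all windows. A CTCF peak of day 6 or day 0 overlapped 92.0%, 97.6% and 83.6% of them. Promoters with MBD3 on day 0 alone were thus as rich in CG as those with MBD3 on both days, with the motif at a lower share. The motif holds a CG itself and was chosen after sequences of these classes had been read. All windows are not matched to the MBD3 windows in CG content, so they are no test of the motif shares. The part of base composition in those shares was not tested.

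Of 21887 protein-coding genes, 527 had an MBD3 peak within 1 kb of an end on day 6 alone (2.41%), 1216 on both days (5.56%) and 978 on day 0 alone (4.47%). The balance rests on weak peaks. With a −log10 q of 10 or more in both lists, 457 genes were occupied on day 6 alone, 616 on both days and 309 on day 0 alone, so day 6 alone then held more genes than day 0 alone. At that threshold the lists are no longer of similar length, with 5694 day 6 peaks and 3759 day 0 peaks. The gene-end peaks of highest fold on day 6 alone were at Rpl4, a protein of the large ribosomal subunit (31.0, 160 fragments), at Bex3 (19.3, 97 fragments), at Bsg, the membrane protein basigin (19, 101 fragments), at Trap1a, a tumour rejection antigen gene (18.6, 69 fragments), and at Rpl34-ps1 (18.2, 63 fragments), which has a pseudogene's symbol but is protein-coding in the RefSeq table. None of these 5 lay in CTCF on day 6 or day 0, and all 5 had peaks on days 2 and 4. On day 0 alone they were at Tbca, a tubulin folding cofactor (8.49, 53 fragments), Relt (7.69), Tnfrsf11a, the receptor RANK (7.29), Chmp4c, a subunit of the membrane-remodelling ESCRT-III (7.03), and Tor1aip1, a nuclear envelope protein (6.86). All 5 of these lay in CTCF of day 0, and 3 of them (Relt, Tnfrsf11a and Tor1aip1) in CTCF of day 6 as well. Away from gene ends, the highest peak of day 0 alone was in Mansc4, with a fold of 14.5 and 84 fragments. The CTCF peak under it had a fold of 2.55 on day 6 and 25.2 on day 0.

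Ribosomal protein genes were occupied on day 6 alone, and also on both days, at higher shares than protein-coding genes as a whole. Of 87 genes, 13 were occupied on day 6 alone (14.9%), 16 on both days (18.4%) and 3 on day 0 alone (3.45%). Over all coding genes the shares were 2.41%, 5.56% and 4.47% in the same order. On day 6 alone, Rpl37rt had a fold of 17.6 (76 fragments) and Rps23rg1, a retroposed copy of Rps23, 11.2 (46 fragments), both outside CTCF. The Rps23rg1 peak is also the one counted for the pseudogene Rps23-ps2. Rpl41 had 6.04 outside CTCF, and Rpl5 had 4.15 in CTCF. On both days, Rpl22 had folds of 13.0 on day 6 and 15.4 on day 0 in CTCF. Rpl8 had 15.0 on day 6 outside CTCF and 2.70 on day 0 in CTCF, with 94 and 87 fragments over backgrounds of 5.31 and 31.5. Rpl4 counts for both days because another peak near it on day 0 had a fold of 3.00. On day 0 alone were Rps25 (4.08), Rpl37 (2.22) and Rps20 (2.12). With peaks outside CTCF left out, an alternative chosen after the values were seen, the counts of 87 were 7 on day 6 alone, 12 on both days and 4 on day 0 alone. Over all 21887 coding genes that alternative gave 450, 1141 and 846 in the same order.

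Genes of small nucleolar RNAs, which guide chemical changes of ribosomal RNA and often lie in introns of ribosomal protein and translation genes, were also counted. Of 132 picked by symbol, 10 were occupied on day 6 alone (7.58%, from 7 distinct peaks), 4 on both days (3.03%) and 1 on day 0 alone (0.758%). Over annotated genes of every kind the shares were 2.22%, 3.77% and 2.89%. All 1340 annotated small nucleolar RNA genes were counted by direct overlap only, without the 1 kb window. Genes and measure both differ from the count of 132, so it cannot show whether the higher share on day 6 alone holds among them. Peaks overlapped 2 of these on day 6 alone (0.149%), 2 on both days (0.149%) and 5 on day 0 alone (0.373%). Snord82 had a fold of 24.3 (158 fragments), Snora75 14.7 (47 fragments) and Snord15b 11.5 (56 fragments) on day 6, all outside CTCF. Snora62, on both days, had 6.15 on day 6 and 1.91 on day 0, with 32 and 81 fragments. With peaks outside CTCF left out, 2 were on day 6 alone, 2 on both days and 1 on day 0 alone. Chaperone genes were occupied in 3 of 26 on day 6 alone (11.5%), 1 on both days (3.85%) and 1 on day 0 alone (3.85%), against 2.41%, 5.56% and 4.47% of all coding genes. The 3 were Hsp90ab1 (7.88 at its end), Hspa5, the chaperone of the endoplasmic reticulum (4.40), and Hsph1 (2.72), none in CTCF. Among cytoskeletal genes 4 of 25 (16.0%) were on day 6 alone (Tubb3, Myl6, Tubb6 and Tmsb4x, folds 2.93 to 4.12), 2 on both days (8.00%) and 3 on day 0 alone (12.0%). Of 37 splicing and RNA-binding genes, 2 were on day 6 alone (5.41%), 5 on both days (13.5%) and 1 on day 0 alone (2.70%). All of these counts are small. Among those on both days, Hnrnpd, a regulator of mRNA decay, had 14.4 on day 6 and 2.95 on day 0, with 203 and 602 fragments, and Hnrnpab had 8.25 and 2.94, with 155 and 420 fragments.

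Other families are set beside the shares of all coding genes, 2.41% on day 6 alone, 5.56% on both days and 4.47% on day 0 alone. Subunits and assembly factors of ATP synthase and the respiratory chain were occupied in 1 of 100 on day 6 alone (1.00%), 18 on both days (18.0%) and 5 on day 0 alone (5.00%). Atp5g2, an ATP synthase subunit, had the highest fold of these, 14 on day 6 and 21.2 on day 0 (376 and 251 fragments). Translation factors were occupied in 1 of 37 on day 6 alone (2.70%), 7 on both days (18.9%) and 3 on day 0 alone (8.11%), among them Eef1b2 on both days (6.24 on day 6 and 8.73 on day 0) and Eif3g on day 6 alone (4.12). Histone genes were 1 of 102 on day 6 alone (0.980%), 13 on both days (12.7%) and 12 on day 0 alone (11.8%). Because histone genes are clustered, the 13 rested on 7 day 6 peaks and the 12 on 8 day 0 peaks. The 1 of day 6 alone was the linker histone gene H1f0, with a fold of 11 (118 fragments) outside CTCF. On day 0 alone H2bc14 had 4.28 (70 fragments) and H3c10 3.87 (67 fragments), both in CTCF. Zfp zinc finger genes were occupied in 3 of 397 on day 6 alone (0.756%), 15 on both days (3.78%) and 20 on day 0 alone (5.04%). Zfp54 (5.21) was on day 6 alone and Zfp287 (7.15) and Zfp146 (4.52) on day 0 alone. Proteasome genes were 2, 5 and 4 of 51 (3.92%, 9.80% and 7.84%), with Psmd7 the highest on day 6 alone (10.8). Solute carriers were 8, 25 and 18 of 389 (2.06%, 6.43% and 4.63%), near the shares of all coding genes. Among those on both days, Slc4a3 had the highest day 6 fold (19 on day 6 and 12.6 on day 0) and Slc48a1 the highest day 0 fold (11.5 on day 6 and 23.5 on day 0). Olfactory receptors, silent outside sensory neurons for the most part, were 1, 1 and 2 of 1106 (0.0904%, 0.0904% and 0.181%).

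**Figure D5:**
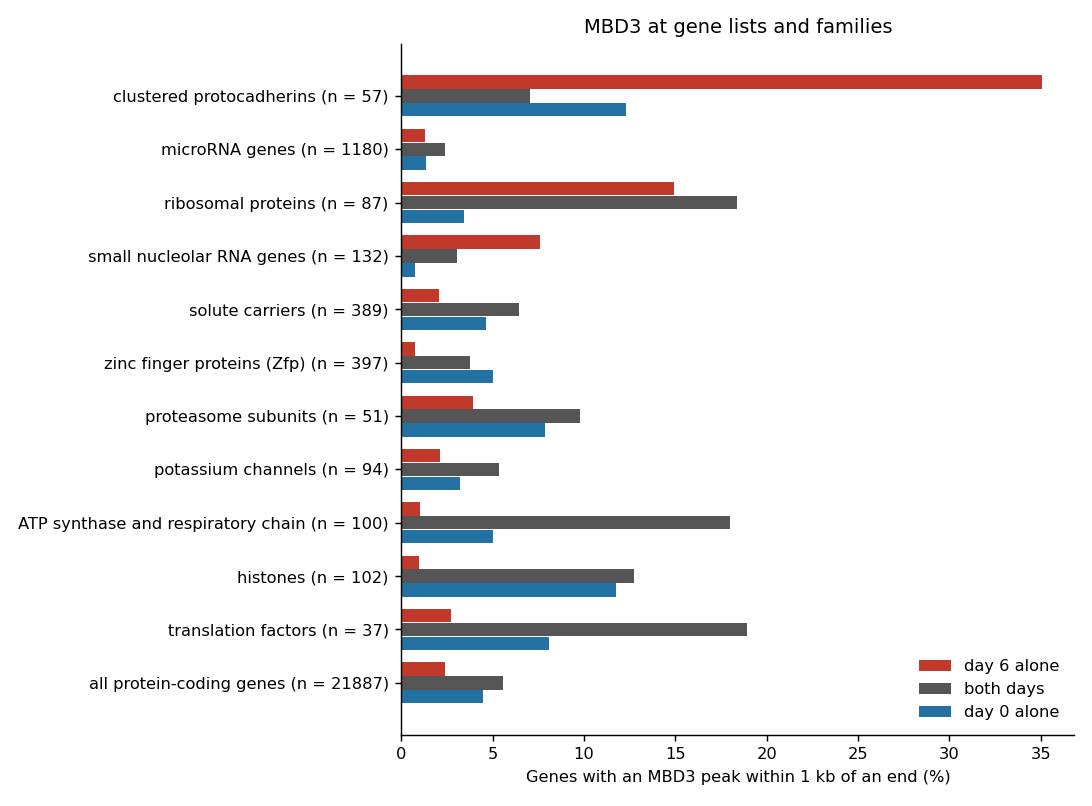
Share of genes with an MBD3 peak within 1 kb of an end (%, x axis) on day 6 alone (red), both days (grey) or day 0 alone (blue), for lists and families with at least 10 occupied genes and for all protein-coding genes (n is the number of genes in each). Ribosomal protein genes stand at 14.9% on day 6 alone and 18.4% on both days, against 2.41% and 5.56% of all protein-coding genes. The 20 protocadherin genes of day 6 alone rest on 5 peaks.

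Clustered protocadherins, cell surface proteins that give neurons their identity and whose alternative first exons are chosen with CTCF, were occupied in 20 of 57 on day 6 alone (35.1%), 4 on both days (7.02%) and 7 on day 0 alone (12.3%). The 20 genes share 5 peaks, since many variants end at 1 common exon, so they are not 20 events. Of 121 symbol stems, the one with the highest share on day 6 alone was Ugt (40.9%, against 2.41% of all coding genes). It had 9 of 22 genes on 1 peak at the common end of the Ugt1a variants, which encode glucuronosyltransferases. Next came Rpl with 9 of 53 (17.0%), Rpl34-ps1 and Rpl37rt among them, and the phosphatase stem Dusp with 4 of 24 (16.7%). In both, each gene was on its own peak. On both days, where 5.56% of all coding genes were occupied, the first stems were Snx, the sorting nexins (6 of 30, 20.0%), Cdk (5 of 26, 19.2%) and Rpl (10 of 53, 18.9%). On day 0 alone, with 4.47% of all coding genes, they were the axon guidance semaphorins Sema (4 of 20, 20.0%), the palmitoyltransferases Zdhhc (4 of 24, 16.7%) and P (4 of 25, 16.0%). The stem P joins unrelated genes whose symbols begin with P and a digit. These stems were picked from the 121 for the highest shares, so the gap to all coding genes is a description only. The counts of 4 to 10 genes are small.

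Lists of cell identity genes are short, so a share of them rests on few genes. Of 22 core and naive pluripotency genes, none was occupied on day 6 alone, Sox2 was on both days (4.55%) and Dppa5a on day 0 alone (4.55%), against 2.41%, 5.56% and 4.47% of all coding genes. Sox2, a core pluripotency factor, had a fold of 3.08 on day 6 and 2.65 on day 0, with 31 and 181 fragments over backgrounds of 9.40 and 67.7. Of 10 formative and primed genes 3 (30.0%) were occupied, all on day 0 alone: Fgf15 (3.99), Zic2 (3.88) and Zic5 (3.49). Of 18 mesoderm and endoderm genes, Gata6 was on day 6 alone (2.55), and Mesp1 (3.92), Eomes (3.84) and Sox17 (3.53) were on day 0 alone (5.56% and 16.7%). Of 16 neuroectoderm genes, Tubb3 was on day 6 alone and the neural progenitor filament gene Nes on both days (3.27 on day 6 and 3.14 on day 0), each 6.25%. Of 15 NuRD subunit genes, Rbbp7, a histone chaperone of the complex, was on both days (6.92 on day 6 and 4.51 on day 0, with 85 and 155 fragments) and the deacetylase Hdac1 on day 0 alone (2.69). Mbd3 itself was not occupied. CTCF and cohesin genes were occupied in 4 of 18 on both days (22.2%) and 2 on day 0 alone (11.1%). Ctcf had 4.74 on day 6 and 8.07 on day 0, and the cohesin subunit Stag2 had 8.30 and 15.0. Fibroblast markers, which the feeders would carry, were 1 of 22 on day 6 alone (4.55%), 4 on both days (18.2%) and none on day 0 alone. The 1 was Sparc, a matrix glycoprotein gene, with a fold of 17.0 and 82 fragments outside CTCF. Col1a1 had 9.27 on day 6 and 7.92 on day 0. A peak does not give expression, and the part of feeder chromatin was not tested.

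The lists of the days between show when single-day peaks were also found. Of peaks of day 6 alone, 33.1% were also on day 4 (interval 31.8 to 34.3%), 7.17% on day 2 and 64.5% on neither. Of peaks of day 0 alone, 22.3% were also on day 4 (21.1 to 23.5%), 2.37% on day 2 and 76.6% on neither. Shared peaks were found on day 4 in 70.3% and on day 2 in 16.7%, and 29.1% were on neither. The lists of days 2 and 4 hold 1991 and 9006 peaks, so absence there depends on list length. The 375 peaks of day 6 alone found on day 2 were unlike the rest of their class: 48.0% overlapped a pseudogene and 19.7% lay in CTCF. Of the 3371 found on neither day, 2.17% overlapped a pseudogene and 91.8% lay in CTCF.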

How the data were processed

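MBD3 immunoprecipitates of day 6 and day 0, 3 samples each, were compared through the authors' deposited peak lists. The submitters' processing notes name Bowtie2 2.3.4 with FastQC 0.11.7, MACS2 2.1.2 with bedtools 2.25.0, SAMtools 1.9, and the build mm10. The lists are marked rep123, so the 3 replicates of a day were called as a pool. For each peak the authors deposited a fold (the ratio of summit fragments to expected background), a −log10 p, a −log10 q, which is at least 1.30 in both lists, and a display score, which was not used. Folds depend on each list's own background and depth.

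Rows of the same interval were joined under the summit of highest −log10 q. Fragments and local background were recovered from fold and p by the peak caller's formulas, within 0.1% of the −log10 p, for 100.0% of summits on both days. On 2000 simulated summits 2000 numbers were recovered, and overlaps were checked against bedtools 2.31.1. The genome-wide level is the smallest background that recurs in 0.5% of a list or more.

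Genes, pseudogenes and promoter windows came from RefSeq (GRCm38.p6, the assembly of mm10). A peak within 1 kb of either outer end made a gene occupied. Starts were taken from 17492 genes with a strand in the promoter table, which has none on chromosome 18. Sites named are, per class, the 5 of highest fold and the 5 of highest fold at coding gene ends, without chromosome 18. In each of 36 lists and families up to 4 occupied genes per class were eligible by −log10 q, and stems of 20 or more genes by the 3 highest shares. Shared sites with the 3 largest rises and falls in rank of fold are named. Pseudogene examples, the motif and any gene named beyond this rule were chosen after their values were seen, and kinases and a binding protein with Rps symbols were removed from the ribosomal family. The members and lists were chosen with earlier results of these data known. Alternatives were stricter thresholds, equal list lengths, other overlaps, other windows, and leaving out pseudogene, high-background or non-CTCF peaks. Scripts ran under Python 3.11.15 (scipy 1.17.1, numpy 2.4.6, matplotlib 3.10.9, pandas 2.3.3). Input samples have no list of their own and were not used here.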

Additional observations from a re-analysis of the deposited data

Results flagged for a closer look

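Peaks outside chromosomes 1 to 19, X and Y entered no comparison. On mitochondrial DNA the MBD3 lists held 14 peaks on day 6 and 14 on day 0, with median folds of 1.57 on day 6 and 1.73 on day 0, and all 14 of day 6 overlapped a day 0 peak. On unplaced and unlocalised scaffolds they held 31 peaks on day 6 and 15 on day 0, of which 8 on each day overlapped a peak of the other. The labels do not say whether the local background of these peaks came from input or from the MBD3 libraries. No input list was at hand to set beside them.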

How the results depend on the processing

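No paired analysis was possible because the authors pooled the replicates of each day before calling peaks. Of 65 recomputed values, 33 stayed within the interval of the value reported (for counts, within 1.5 times it) and 32 moved. The share of day 6 peaks and of day 0 peaks that were shared was 43.1% and 65.3% at a −log10 q of 10 or more in both lists, 50.5% and 52.5% with summits within 100 bp, and 44.5% and 44.3% without peaks of high background. With equal list lengths 53.1% of day 6 peaks were shared. At a −log10 q of 10 or more the median fold was 5.40 for day 6 alone, 5.37 and 5.40 for shared peaks on day 6 and day 0, and 5.12 for day 0 alone. With MBD3 and CTCF peaks at that threshold, CTCF lay under 89.8% of day 6 alone, 94.9% of shared peaks on day 6, 94.8% on day 0, and 92.5% of day 0 alone, so day 0 alone was then not the lowest class. Summits near gene ends made up 12.0%, 21.1% and 21.0% of day 6 alone, shared and day 0 alone at that threshold, and 27.3%, 39.5% and 37.4% with a window of 5 kb. Genes occupied on day 6 alone, both days and day 0 alone numbered 1306, 2865 and 1545 with 5 kb, and 1471, 3121 and 1639 when a peak inside the gene counted. At the stricter threshold 616 genes were occupied on both days and 309 on day 0 alone. Genes of the lists numbered 211, 458 and 214 with 5 kb, against 102, 182 and 130 with 1 kb. The cause of these moves was not tested, beyond the fewer peaks or wider windows of each alternative. Counting each summit, adding scaffolds, asking for an overlap of 50% of the shorter peak, or leaving out pseudogene peaks moved none of the shares of shared peaks. Depth is known only through the background level, and input is not known separately.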

Other observations

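Chromosome X had a smaller share of shared peaks than any autosome on either day. Of its 190 day 6 peaks 130 were of day 6 alone (68.4%, interval 61.3 to 75%), and of its 159 day 0 peaks 97 were of day 0 alone (61.0%, interval 53.0 to 68.6%). On the autosomes the highest shares alone were 54.2% on day 6 (chromosome 3) and 53.8% on day 0 (chromosome 14), and the lowest were 37.2% on day 6 (chromosome 8) and 41.1% on day 0 (chromosome 12). Of the 130 X peaks of day 6 alone 21 overlapped a pseudogene, and 74.7% of all X peaks of day 6 and 76.7% of those of day 0 lay in CTCF.

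MicroRNA genes were occupied in 15 of 1180 on day 6 alone (1.27%), 28 on both days (2.37%) and 16 on day 0 alone (1.36%), each below the share of annotated genes of every kind (2.22%, 3.77% and 2.89%). Mir682, on both days outside CTCF, had a fold of 10.5 on day 6 and 1.60 on day 0, with 46 and 102 fragments over backgrounds of 3.47 and 63.3. Hox genes, the regulators of body axis, were 2, 4 and 3 of 39 (5.13%, 10.3% and 7.69%, against 2.41%, 5.56% and 4.47% of all coding genes). Hoxb6 (3.18) and Hoxa4 (2.39) were on day 6 alone outside CTCF, Hoxc10 on both days (6.93 on day 6 and 6.07 on day 0), and Hoxc5 (6.45), Hoxb5 (4.64) and Hoxa10 (3.88) on day 0 alone in CTCF. Glycolysis genes were 1 of 19 on day 6 alone (5.26%; Pkm, fold 2.89), none on both days and 4 on day 0 alone (21.1%; Pfkl, Aldoa, Tpi1 and Eno1, folds 2.32 to 3.27).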
